A study of Mus musculus with 16 samples.

Results

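MC/9 cells exposed to H2O2 were compared with MC/9 cells kept under normal conditions on 8 of the 16 arrays of the series. The arrays were chosen by their sample titles, 4 of cells from normal conditions (norm cell) and 4 of cells from H2O2 conditions (oxi cell), with replicates 1 to 4 in each group, and the other arrays held exosome RNA. MC/9 is a mouse mast cell line that depends on growth factors of the medium. Both groups were grown in DMEM with fetal bovine serum, Rat T-Stim, L-glutamine, 2-mercaptoethanol and antibiotics, and they differed by 24 h with vehicle or with 125 µM H2O2, a dose that the study chose because it kills part of the cells. The study asked whether exosomes made under oxidative stress carry other RNA than exosomes of normal cells, and these arrays are the donor side of that question. The sample descriptions name the cells as recipients of exosomes, whereas the methods treat them as donor cells, and the groups used here follow the labelled condition. Total RNA was hybridised to Affymetrix mouse arrays, and each value is a MAS5.0 signal, a linear measure of brightness that was scaled on every array to a trimmed mean of 100. Signals of different genes are not compared with each other, since each probe set has its own affinity. All RNA came from 1 cell line, and whether all replicates were separate cultures is not stated, so the p-values measure the spread between these arrays, which may be technical. In RNA of whole cultures, fewer cells of a kind and less RNA per cell cannot be told apart.

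Hydrogen peroxide is a small oxidant that crosses membranes, oxidises thiols of proteins and, with iron, yields radicals that break DNA. Cells answer it with peroxidases and the thioredoxin and glutathione systems, many of whose genes are switched on by NRF2 after its release from Keap1, and with p53, which answers DNA damage with genes of cell cycle arrest, repair and death. Mast cells are granulated immune cells that store proteases, histamine and proteoglycans and release them when IgE on the high-affinity receptor Fc epsilon RI is cross-linked, while Kit and the factors GATA2 and MITF keep their identity.

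The label of a mast cell line was borne out by the marker genes. Kit, the stem cell factor receptor, had signals of 1602, 1614, 1582 and 1582 on the 4 norm cell arrays and 1588, 1493, 1773 and 1611 on the 4 oxi cell arrays. Fcer1a, the IgE-binding chain, ranged from 10100 to 11780 in norm cell and 7817 to 9604 in oxi cell, and Cpa3, the mast cell carboxypeptidase, from 9067 to 10700 and 6995 to 8668. Gata2, Srgn and Hdc were likewise above background on all 8 arrays. The background of an array was the signal that 95% of 265 probe sets of lens, hair, olfactory epithelium and similar tissues stayed under, which gave 16.2 ± 1.55 (SD, n = 4) for norm cell and 13.2 ± 1.64 for oxi cell. Detected genes are those above it on all 4 arrays of either group. Markers of other cells were mostly not detected. This was so for all 16 B lymphocyte markers, while 1 of 15 T lymphocyte markers, 3 of 21 of macrophages and neutrophils, 4 of 12 of erythroid cells and 1 of 19 of fibroblasts and endothelium were detected. Cd3e, Cd79a, Itgam and Col1a1 were below background on all 8 arrays. Of the detected markers, Pecam1 of the fibroblast and endothelium list ranged from 435 to 627. The erythroid Hbb-bh1 ranged from 221 to 447.5, Klf1 from 96.6 to 141 and Kel from 38.1 to 59.2. Cd14 and Csf1r of macrophages ranged from 37.9 to 62.95 and from 23.5 to 41. These were above background on all 8 arrays, whereas Zap70, Rhd and Mpo were so on all 4 arrays of oxi cell only. The 1 marker of these lists that passed the test, Col1a2, a collagen chain of fibroblasts, had signals of 19.9, 19.9, 14.7 and 22.4 in norm cell and 7.87, 9.74, 7.33 and 6.62 in oxi cell, near background in the first group and below it in the second (adjusted p = 0.0476), and it was not called on the scale of the spiked controls described below.

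**Figure D1:**
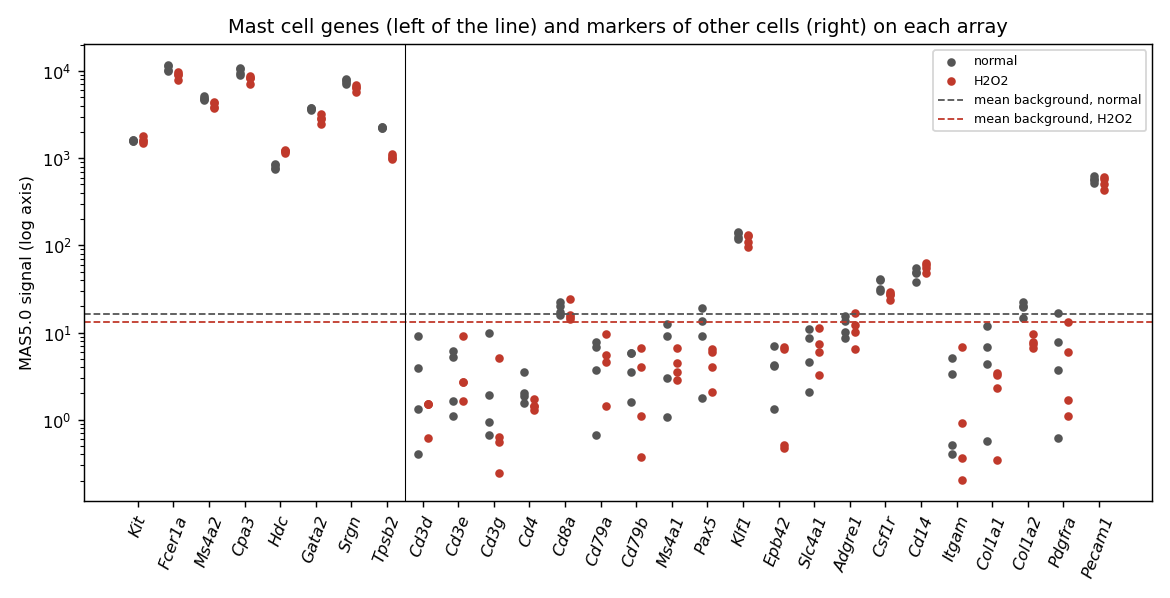
MAS5.0 signal (log axis) of mast cell genes, left of the vertical line, and of markers of other cells, right of it, on the 4 norm cell arrays (grey) and 4 oxi cell arrays (red). The dashed lines are the mean backgrounds, 16.2 (norm cell) and 13.2 (oxi cell). The mast cell genes lie far above them. Of the other markers, Pecam1, Klf1, Cd14 and Csf1r also lie above, whereas Cd3e, Cd79a, Itgam and Col1a1 lie below.

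Oxidative stress left a broad and mostly shallow change. Log2 signals were fitted with limma, the replicate number being a block, and calls are at an adjusted p (Benjamini-Hochberg across the 45037 probe sets) below 0.05. Of the probe sets, 1941 (4.31%) were called higher in oxi cell and 2483 (5.51%) lower, 9.82% in total. At 1 probe set per gene, 1226 of 18193 genes (6.74%) were higher and 962 (5.29%) were lower. Among the 9669 detected genes the shares were 12.6% and 9.62%. The groups did not overlap for 3198 of these detected genes (33.1%), called or not, so lack of overlap alone does not mark a gene out. Most gene lists consist mainly of detected genes, so the shares of detected genes are the closer base for them. The calls rest on a fit in which the spread follows the mean signal. Without that trend limma called 0 probe sets, although 7011 had an unadjusted p below 0.05, and over the detected probe sets alone it called 1405 higher and 2151 lower without the trend. The methods' t-test on paired linear signals left 2 higher and 3 lower after adjustment, of 7885 before it. The 1220 detected genes that rose had a median log2 change of 0.38, and 42 of them reached 1, a doubling of signal. The 930 that fell had a median size of 0.41 on the log2 scale, and 27 reached 1. Correlations of log2 signals ran from 0.983 to 0.989 between arrays of the same group and from 0.970 to 0.978 between groups, and the first principal component, with 43.4% of the variance, separated the groups.

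Part of this pattern depended on how the arrays were scaled. The spiked hybridization controls, which are added in equal amounts, averaged 1092 on the norm cell arrays (geometric mean per array, SD 73.8, n = 4) and 900.4 on the oxi cell arrays (SD 59.8). By a two-sided exact permutation test p was 0.0286, below which 4 against 4 arrays cannot go, and 0.0667 after adjustment over 7 array measures. The median signal of all probe sets went the same way, by a factor of 0.834 between the group means, and had the same p-values. So did the share of signal in the top 100 probe sets, 11.7% in norm cell and 10.3% in oxi cell. A factor common to all probe sets of an array does not alter this share. The ratios of 3' to 5' signal, a sign of RNA integrity, were 0.832 and 0.851 for Gapdh (exact p = 0.0571) and 1.43 and 1.38 for actin (exact p = 0.457). Scaling the arrays to the spiked controls adds 0.28 to every log2 change, so that 6177 probe sets are then higher and 498 lower, and the calls that are rises go from 43.9% to 92.5%. Centring on the array median gives 91.1% and quantile normalization 53.3%. In both groups the mean of the array medians lay below the mean background, which itself differed by a factor of 0.817 between the groups. Median centring thus rests on signals near background, so its share is not a separate check of the share from the spiked controls. At 1 probe set per gene and scaled to the spiked controls, 21.4% of all genes were higher and 0.934% lower. The counts of a list are therefore followed by its counts of higher and lower members scaled to the controls, and the list medians printed are mostly relative to that of all detected genes (-0.01), a difference that this scaling does not move. The share of detected genes called on that scale was not taken. The scaled counts thus have no matching base and do not by themselves set a list apart from other detected genes. Of the 37 genes named in the text that were not called as deposited, 19 were called higher when scaled to the controls and 0 lower, so a missing call as deposited does not show that a gene did not change.

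**Figure D2:**
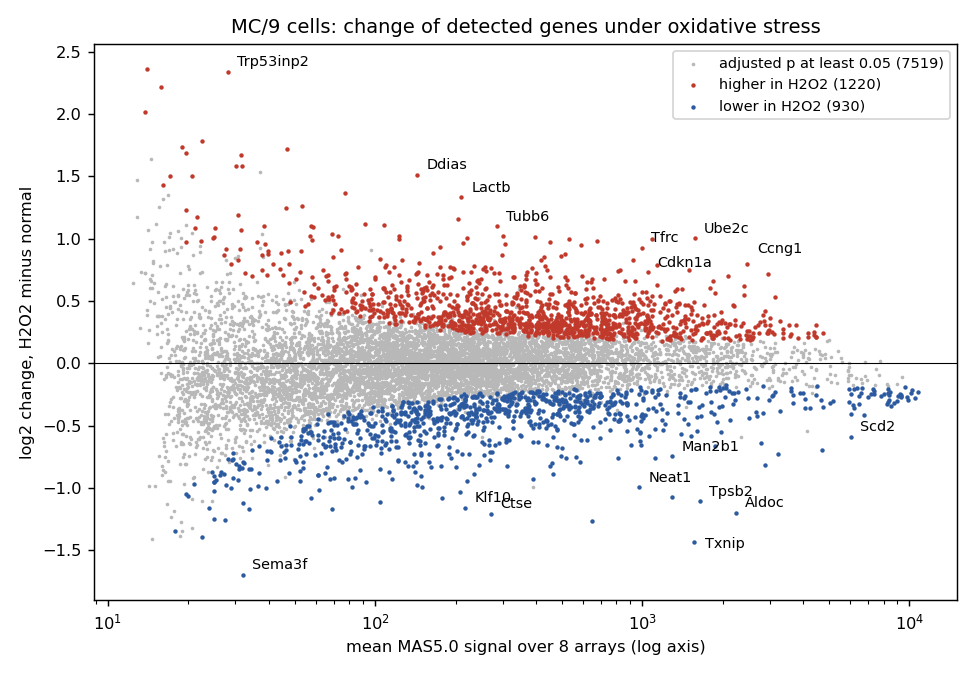
Log2 change (oxi cell minus norm cell) of the 9669 detected genes against their mean signal over 8 arrays (log axis), with genes called higher in red, lower in blue and the others in grey. Most called genes lie within 1 log2 unit of 0, and the steepest changes, such as that of Trp53inp2, are at signals near background.

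Many target genes of p53 rose. Of 33 measured, 15 (45.5%) were called higher and 1 lower (17 and 0 scaled to the controls). The share called higher was 6.74% of all genes and 12.6% of detected genes. The median of the detected members lay 0.49 log2 units above that of all detected genes. Ccng1, which encodes cyclin G1 and is a direct p53 target, had signals of 1784, 1851, 1790 and 1770 in norm cell and 3025, 2981, 3146 and 3346 in oxi cell. The groups were far apart, and the fit gave a log2 change of 0.80 (SE 0.05, adjusted p = 2.86e-05). Cdkn1a, the cyclin-dependent kinase inhibitor p21, had 766, 764, 805 and 812 in norm cell and 1454, 1321, 1382 and 1090 in oxi cell. Its lowest oxi cell array, replicate 4, was still above every norm cell array (log2 change 0.73, SE 0.08, adjusted p = 0.000246). Mdm2, the ubiquitin ligase that removes p53, rose from 402 ± 29.4 (SD, n = 4) to 560.3 ± 14.6 (adjusted p = 0.00107). Other members cover several arms of the response. Gtse1, which binds p53 in the later cell cycle, rose by 0.83 on the log2 scale, the stress-induced metabolic regulators Sesn2 and Tigar by 0.72 and 0.69, and the RNA-binding protein Zmat3 by 0.56. Eda2r, a death receptor of the tumour necrosis factor family, had 13.2, 22.9, 13 and 15.2 in norm cell, around background, and 49.1, 56.9, 37.1 and 47 in oxi cell (log2 change 1.59, adjusted p = 0.000882). Ddias, a suppressor of apoptosis after DNA damage that is on none of the lists, rose on all 4 oxi cell arrays, with 75.7, 91, 53.1 and 83.1 in norm cell and 205, 209.8, 212 and 222 in oxi cell (log2 change 1.51, adjusted p = 6.38e-05). The member that fell was Cd82, a tetraspanin (log2 change -0.53), whose call was lost on the scale of the spiked controls (-0.25).

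The promoters of Ccng1 and Cdkn1a are shown because these genes are classic targets of p53 whose rises were steep at high signal. They are RefSeq sequences of GRCm38.p6, from 250 bases before to 50 bases after the annotated start, written on the gene's own strand, and capitals mark matches to the decamer of the p53 response element. Ccng1 lies at chr11:40755237-40755536 on the minus strand and Cdkn1a at chr17:29090729-29091028 on the plus strand (1 of 2 promoters listed for it).
Ccng1: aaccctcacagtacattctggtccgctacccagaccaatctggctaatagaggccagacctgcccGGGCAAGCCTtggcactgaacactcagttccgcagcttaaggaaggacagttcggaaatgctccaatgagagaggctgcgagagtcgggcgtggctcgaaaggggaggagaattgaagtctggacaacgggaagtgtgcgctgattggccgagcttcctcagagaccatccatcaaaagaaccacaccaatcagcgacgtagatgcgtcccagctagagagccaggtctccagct
Cdkn1a: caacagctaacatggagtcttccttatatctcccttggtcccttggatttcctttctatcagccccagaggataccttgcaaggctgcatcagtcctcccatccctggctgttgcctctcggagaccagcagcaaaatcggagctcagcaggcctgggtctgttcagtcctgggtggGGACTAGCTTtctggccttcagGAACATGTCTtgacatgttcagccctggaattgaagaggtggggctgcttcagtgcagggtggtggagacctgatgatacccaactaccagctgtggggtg
The decamer was found in 8 of 25 p53 target promoters and in 8.37% of all 27025 promoters of this length, on either strand. A match is a description of the letters and no evidence of binding.

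Mitotic genes rose together. Of 56 mitotic genes and cyclins, 36 (64.3%) were called higher and 3 lower (45 and 0 scaled to the controls), with a median 0.36 above all detected genes. Ube2c, the ubiquitin-conjugating enzyme of the anaphase-promoting complex, had 1099, 995, 1009 and 1077 in norm cell and 2040, 2063, 2245 and 2048 in oxi cell. All oxi cell arrays were above all norm cell arrays, replicate 3 being the highest (log2 change 1.01, SE 0.06, adjusted p = 2.17e-05). Ccnb2, cyclin B2 of the entry into mitosis, had 835, 764, 871 and 848 in norm cell and 1417, 1452, 1518 and 1357 in oxi cell, again without overlap (log2 change 0.79, adjusted p = 3.89e-05). Plk1, the polo-like kinase, rose from 254 ± 15.3 (SD, n = 4) to 409 ± 11.4, the kinesin Kif20a from 173 ± 23.3 to 295 ± 6.53, and the spindle kinase Aurka by 0.76 on the log2 scale. Cdk1, the kinase that cyclin B activates, rose by 0.43 (adjusted p = 0.000534). The members that were lower as deposited, Ccnd1, Ccnd2 and Ccne2, encode cyclins of the G1 phase and the start of replication, with log2 changes of -0.49, -0.23 and -0.46. None of these falls passed the test on the scale of the spiked controls, where Ccnd2 stood at 0.05. The share of cells in each phase of the cycle was not measured.

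The promoters of Ube2c, Ccnb2 and Plk1 are shown in the same way because mitotic genes share short promoter elements. Capitals mark the CCAAT box (CCAAT or ATTGG) and the cell cycle genes homology region (TTTGAA or TTCAAA), which can overlap on opposite strands. Ube2c lies at chr2:164769679-164769978 on the plus strand, Ccnb2 at chr9:70421505-70421804 on the minus strand and Plk1 at chr7:122159185-122159484 on the plus strand.
Ube2c: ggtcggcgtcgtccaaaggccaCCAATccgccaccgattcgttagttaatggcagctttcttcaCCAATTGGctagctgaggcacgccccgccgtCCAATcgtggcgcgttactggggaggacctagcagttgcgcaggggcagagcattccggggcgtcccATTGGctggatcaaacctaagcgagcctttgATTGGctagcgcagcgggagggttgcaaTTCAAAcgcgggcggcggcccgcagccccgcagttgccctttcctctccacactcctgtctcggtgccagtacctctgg
Ccnb2: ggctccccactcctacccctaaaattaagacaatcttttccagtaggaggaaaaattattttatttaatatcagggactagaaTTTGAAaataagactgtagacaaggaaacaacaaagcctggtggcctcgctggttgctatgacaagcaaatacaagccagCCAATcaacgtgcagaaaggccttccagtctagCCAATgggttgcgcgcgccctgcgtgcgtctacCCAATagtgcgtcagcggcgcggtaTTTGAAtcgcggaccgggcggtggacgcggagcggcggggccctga
Plk1: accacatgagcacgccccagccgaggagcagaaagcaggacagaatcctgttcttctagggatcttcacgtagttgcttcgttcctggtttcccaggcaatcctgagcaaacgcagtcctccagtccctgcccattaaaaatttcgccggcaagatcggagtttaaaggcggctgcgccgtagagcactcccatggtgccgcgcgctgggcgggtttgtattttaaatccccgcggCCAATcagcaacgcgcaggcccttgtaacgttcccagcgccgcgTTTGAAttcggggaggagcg
TTTGAA or TTCAAA was present in 27 of the 46 mitotic promoters listed (58.7%), in 20 of the 29 whose gene was called higher (69.0%), and in 18.1% of all promoters. CCAAT was present in 65.2% of the mitotic promoters and in 37.9% of all.

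Genes of DNA replication were called as deposited at shares near those of detected genes. Of 48, 5 (10.4%) were higher and 4 (8.33%) lower, against 12.6% and 9.62% of detected genes. Scaled to the controls the list had 26 higher and 0 lower, and its median lay 0.04 above all detected genes. Orc1, of the origin recognition complex, and Fen1, the flap endonuclease, rose by 0.60 and 0.50 on the log2 scale. Pcna, the sliding clamp, was lower as deposited (4155 to 4445 against 3471 to 3799, log2 change -0.24, adjusted p = 0.013) but at 0.04 on the scale of the spiked controls. Among 58 repair and checkpoint genes, 4 rose and 5 were lower (16 and 2 scaled to the controls). As deposited these shares are 6.9% and 8.62%, against 12.6% and 9.62% of detected genes. H2ax, the histone variant that marks DNA breaks when phosphorylated, had 794, 696, 709 and 631 in norm cell and 457, 447, 432 and 348 in oxi cell, without overlap (log2 change -0.75, SE 0.06, adjusted p = 6.82e-05, and -0.47, still called, on the scale of the controls). Neil3, a glycosylase that removes oxidised bases, fell from 184 ± 9.18 (SD, n = 4) to 112 ± 7.33, with a log2 change of -0.72 (adjusted p = 0.000619) and -0.44 on the scale of the controls. Of 20 histone genes, 2 were higher and 5 lower (3 and 2 scaled to the controls). Chek1, a checkpoint kinase, had a log2 change of -0.03 and Atm, the kinase that senses breaks, of -0.31 (adjusted p = 0.0296), which was not called on the scale of the controls.

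**Figure D3:**
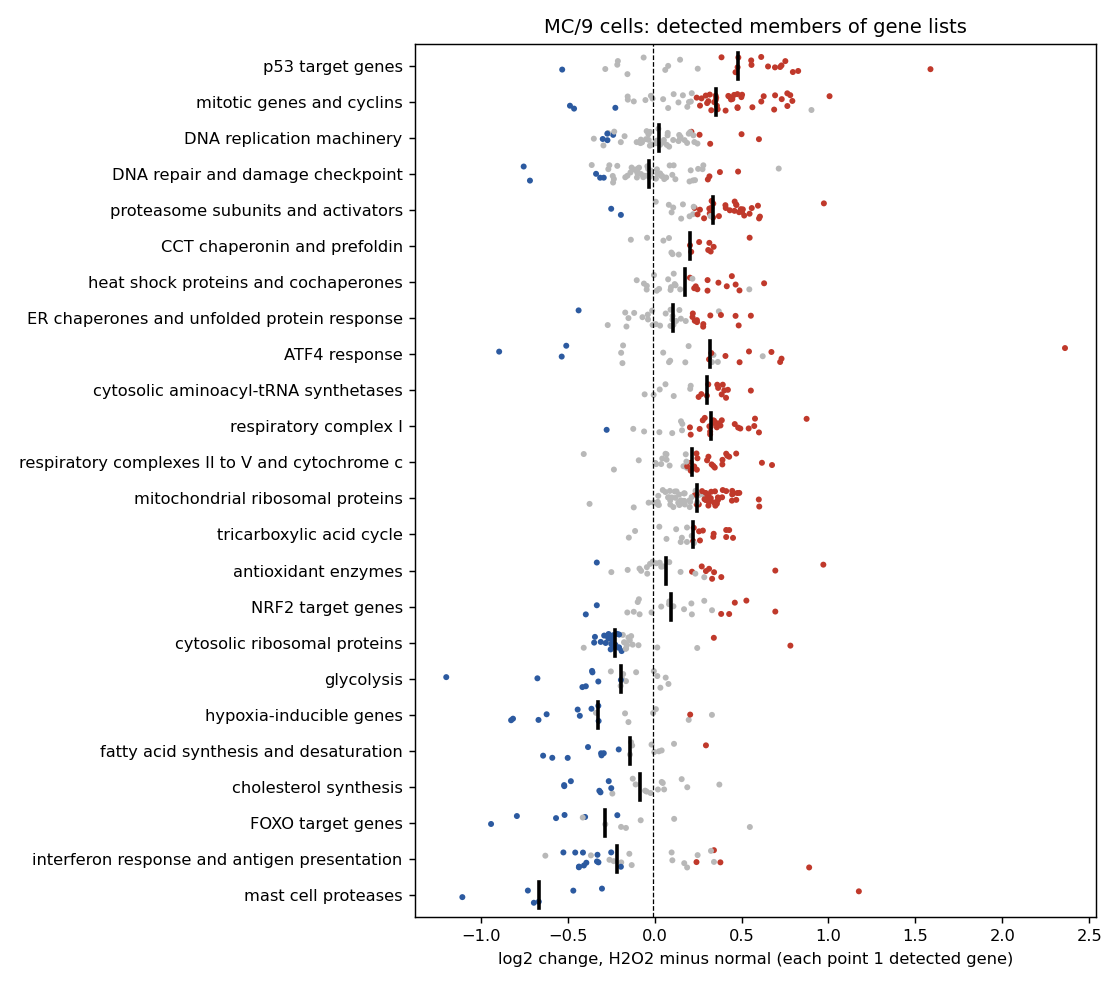
Log2 change (oxi cell minus norm cell) of the detected members of 24 gene lists, each point 1 gene, red called higher, blue called lower and grey neither; black bars are the medians of the detected members and the dashed line the median of all detected genes, -0.01. The p53, mitotic, proteasome and mitochondrial lists lie to the right of the line and the hypoxia, FOXO and mast cell protease lists to the left.

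Nuclear genes of the mitochondrion were higher as a class, by small steps. Complex I, the NADH dehydrogenase that feeds electrons into the respiratory chain, had 25 of 34 subunits called higher (73.5%) and 1 lower (31 and 0 scaled to the controls), with a median 0.33 above all detected genes. Ndufa4, now placed with complex IV, was the steepest, with 399, 346, 332 and 374 in norm cell and 679, 706, 594 and 680.4 in oxi cell (log2 change 0.87, SE 0.06, adjusted p = 3.89e-05). Ndufb6, Ndufa5 and Ndufc1 rose by 0.58, 0.57 and 0.54 on the log2 scale. Ndufb8, at 0.60, had another detected probe set with a change of the other sign. The exception, Ndufa6, had a log2 change of -0.28, and the fall was not called on the scale of the spiked controls. In complexes II to V with cytochrome c, 22 of 38 were higher and 0 lower (35 and 0 scaled to the controls). Atp5g1, of the membrane ring of ATP synthase, rose from 553 ± 23.6 (SD, n = 4) to 884 ± 53.9 and Uqcrq, of complex III, from 286 ± 39.3 to 437 ± 30.5. Cycs, cytochrome c, which carries electrons in the chain and starts caspase activation when released, had 2457, 2524, 2339 and 2549 in norm cell and 3106, 3251, 3221 and 3626 in oxi cell, and all of the latter were higher (log2 change 0.42, adjusted p = 0.000662). Cox5a, of cytochrome c oxidase, rose by 0.34.

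The other mitochondrial lists went the same way. Of 76 mitochondrial ribosomal proteins, which translate the few proteins of the mitochondrial genome, 36 (47.4%) rose and 0 fell (70 and 0 scaled to the controls), with the largest rises for Mrpl1 (0.60), Mrpl11 (0.60) and Mrps15 (0.49). Among import and folding proteins 13 of 25 rose and 0 fell (23 and 0 scaled to the controls), including the chaperonin Hspe1 (1068 to 1224 against 1496 to 1781, log2 change 0.49) and the inner membrane channel Timm23 (0.38), while Tomm20, the outer membrane receptor, had 6214 to 6979 and 5618 to 6708 with overlapping groups. In the tricarboxylic acid cycle 11 of 22 rose and 0 fell (20 and 0 scaled to the controls). Sucla2 and Suclg1, both of succinyl-CoA synthetase, and Sdhb, of succinate dehydrogenase, had the largest, with log2 changes of 0.45, 0.41 and 0.43, and Cs, citrate synthase, had 0.03 and did not pass the test. Slc25a4, the ADP and ATP carrier of the inner membrane, and Lactb, a mitochondrial protease, were among the steepest rises of genes of this signal. Slc25a4 ran from 378 to 438 in norm cell and from 723 to 846 in oxi cell, and Lactb from 101 to 143 and from 245 to 336 (log2 changes 0.95 and 1.33). The medians of the ribosomal, import and cycle lists lay 0.25, 0.25 and 0.23 above all detected genes.

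The proteasome, which degrades oxidised and ubiquitinated proteins, was higher in most of its subunits. Of 43 subunits and activators, 29 (67.4%) were called higher and 2 lower (39 and 0 scaled to the controls), with a median 0.35 above all detected genes. Psmb3, of the core particle, had 1122, 1052, 1159 and 1140 in norm cell and 1572, 1673, 1720 and 1825 in oxi cell (log2 change 0.60, SE 0.05, adjusted p = 0.000129). Every oxi cell array was above every norm cell array. The catalytic subunits Psmb5 and Psmb7 rose from 761 ± 39.7 (SD, n = 4) to 1066 ± 58.6 and from 1428 ± 177 to 2163 ± 92.7. Psmc4, an ATPase of the cap, had 367, 290.3, 282 and 261 in norm cell and 528, 452, 899 and 545 in oxi cell, with 1 high array, replicate 3 (log2 change 0.97, adjusted p = 0.00178). The members that were lower were Psmb8 and Psmb9, the interferon-induced catalytic subunits of the immunoproteasome, at -0.19 (adjusted p = 0.0484) and -0.25 (adjusted p = 0.0345). On the scale of the spiked controls they stood at 0.08 and 0.03 and neither passed the test.

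Chaperone lists rose in part. Of 15 genes of the CCT chaperonin and prefoldin, which fold actin and tubulin, 8 were higher and 0 lower (13 and 0 scaled to the controls), including Cct2 (3752 to 4263 against 4490 to 5268, log2 change 0.31) and Tcp1 (0.26). Among 35 heat shock proteins and cochaperones, 12 rose and 0 fell (24 and 0 scaled to the controls), with Hsph1, a nucleotide exchange factor, at 0.63 and the mitochondrial Trap1 at 0.47. The classic cytosolic members did not pass the test as deposited but were called higher when scaled to the controls. Hsp90aa1 had 3521 to 4122 in norm cell and 3468 to 4415 in oxi cell, Hspa8 6887 to 8649 and 6425 to 8414, and Hspa1b, the inducible HSP70, 15.9 to 22.5 and 23.8 to 33.9, close to background, with an adjusted p of 0.172. In the endoplasmic reticulum 12 of 38 rose and 1 fell (28 and 0 scaled to the controls). Creld2 and Sdf2l1, cofactors of folding, rose by 0.55 and 0.48, whereas Hspa5, the chaperone BiP, had a log2 change of 0.06 and Xbp1, a transcription factor of the unfolded protein response, of -0.16 (adjusted p = 0.55 and 0.0729).

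Amino acid supply and translation showed a divided picture. Of 19 cytosolic aminoacyl-tRNA synthetases, 12 (63.2%) rose and 0 fell (18 and 0 scaled to the controls), with the largest rises for Wars (0.55), Vars (0.42) and Aars (0.41). In the ATF4 response, by which cells adapt to amino acid shortage and stalled translation, 9 of 29 were higher and 3 lower (15 and 0 scaled to the controls). Genes of serine and asparagine synthesis rose, with Phgdh at 0.73, Psat1 at 0.67 and Asns at 0.33, and so did Mthfd2 of mitochondrial folate metabolism (175 to 185 against 224 to 296). Atf4 itself had 765 to 794 in norm cell and 548 to 753 in oxi cell (log2 change -0.19, adjusted p = 0.16). Ppp1r15a, which restarts translation after stress, and Ddit3, a factor of stress-induced death, were lower, at -0.53 and -0.51, the latter with another detected probe set of the other sign, and neither was called lower when scaled to the controls. Cytosolic ribosomal proteins were lower as deposited, 24 of 42 with a median of -0.23, but only 1 was lower with quantile normalization and 0 on the scale of the spiked controls, where the median was 0.05. Rps25 and Rps6 were the exceptions, called higher as deposited, with quantile normalization and on the scale of the controls. Rps25 had 318, 290.5, 342 and 322 in norm cell and 562, 605, 519 and 502 in oxi cell (log2 change 0.78, adjusted p = 0.000234), and Rps6 a log2 change of 0.34. Ribosome biogenesis had 9 rises in 47 (19.1%) and 0 falls (37 and 0 scaled to the controls), with Nhp2 of snoRNA particles at 0.47. Translation factors had 7 rises (17.9%) and 3 falls (7.69%) in 39 (28 and 1 scaled to the controls). For detected genes these shares were 12.6% and 9.62% as deposited. Eif4e, the cap-binding factor, was at 0.31 and Eif4a2, a helicase, at -0.54 (-0.26, still called, on the scale of the controls).

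Some redox genes changed. Txnip, which binds and inhibits thioredoxin and curbs glucose uptake, had the steepest fall of any gene with a mean signal of at least 150 in its higher group, with 2168, 2122, 2466 and 2252 in norm cell and 886, 1066, 992 and 511 in oxi cell. Each oxi cell array was under every norm cell array, and replicate 4 was the lowest (log2 change -1.43, SE 0.14, adjusted p = 0.000166, and -1.16, still called, on the scale of the spiked controls). Txnrd1, thioredoxin reductase and a target of NRF2, had 348, 356, 344 and 329.6 in norm cell and 652, 560.2, 509 and 517 in oxi cell, all of the latter higher (log2 change 0.69, SE 0.07, adjusted p = 0.00021). The thioredoxins Txn1 and Txn2 rose by 0.22 and 0.31 on the log2 scale. Among 30 antioxidant enzymes 9 rose (30%) and 1 fell (17 and 0 scaled to the controls), with a median 0.07 above all detected genes. Of detected genes 12.6% were higher and 9.62% lower as deposited. Gpx1, glutathione peroxidase, rose from 2371 ± 32.6 (SD, n = 4) to 2911 ± 101 and Prdx2, peroxiredoxin of the cytosol, from 1069 ± 25.6 to 1395 ± 57.5. Sod1 and Cat, superoxide dismutase and catalase, had 1925 to 2343 against 1906 to 2677 and 762 to 799 against 708 to 786, with overlapping groups and adjusted p of 0.836 and 0.457.

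Of 27 NRF2 targets, 5 (18.5%) were higher and 2 (7.41%) lower (12 and 0 scaled to the controls). As deposited these shares are near the 12.6% and 9.62% of detected genes. Beside Txnrd1, the carbonyl reductase Cbr3 rose from 276 ± 10.8 (SD, n = 4) to 399 ± 23.5 and the quinone reductase Nqo1 from 80.2 ± 9.74 to 111 ± 17.8 (adjusted p = 0.0485). Hmox1, heme oxygenase, had 37.6, 48.3, 32.6 and 36.1 in norm cell and 38.4, 41, 57 and 42.8 in oxi cell, and Gclm and Srxn1, of glutathione synthesis and peroxiredoxin repair, had log2 changes of 0.08 and 0.04. These groups overlapped, and the adjusted p were 0.577, 0.545 and 0.889. Gclc, the catalytic partner of Gclm, was lower at -0.33, a fall not called on the scale of the controls. Nfe2l2, which encodes NRF2, and its inhibitor Keap1 stood at 0.02 and 0.02 (adjusted p = 0.918 and 0.911). In the pentose phosphate pathway and other sources of NADPH 5 of 14 rose and 1 fell (10 and 0 scaled to the controls), with Pgd, a dehydrogenase of that pathway, at 1145 to 1345 in norm cell and 1583 to 1713 in oxi cell. The metallothioneins Mt1 and Mt2, which bind metals and scavenge radicals, had log2 changes of -0.02 and 0.00. Tfrc, the transferrin receptor that brings in iron, had 622, 712, 663 and 756 in norm cell and 1329, 1344, 1116 and 1457 in oxi cell, without overlap (log2 change 0.93, SE 0.06, adjusted p = 2.86e-05). Of the 25 genes of iron and heme handling 2 (8%) were higher and 1 (4%) lower (12 and 0 scaled to the controls), shares below those of detected genes. Beside Tfrc these were Aco1, the iron regulatory protein and aconitase of the cytosol, at 0.29, and Pcbp1, which carries iron to ferritin, at -0.17 (adjusted p = 0.0492). Fth1, a ferritin chain that stores iron, had 5969 to 6180 and 5253 to 5990 (adjusted p = 0.209).

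**Figure D4:**
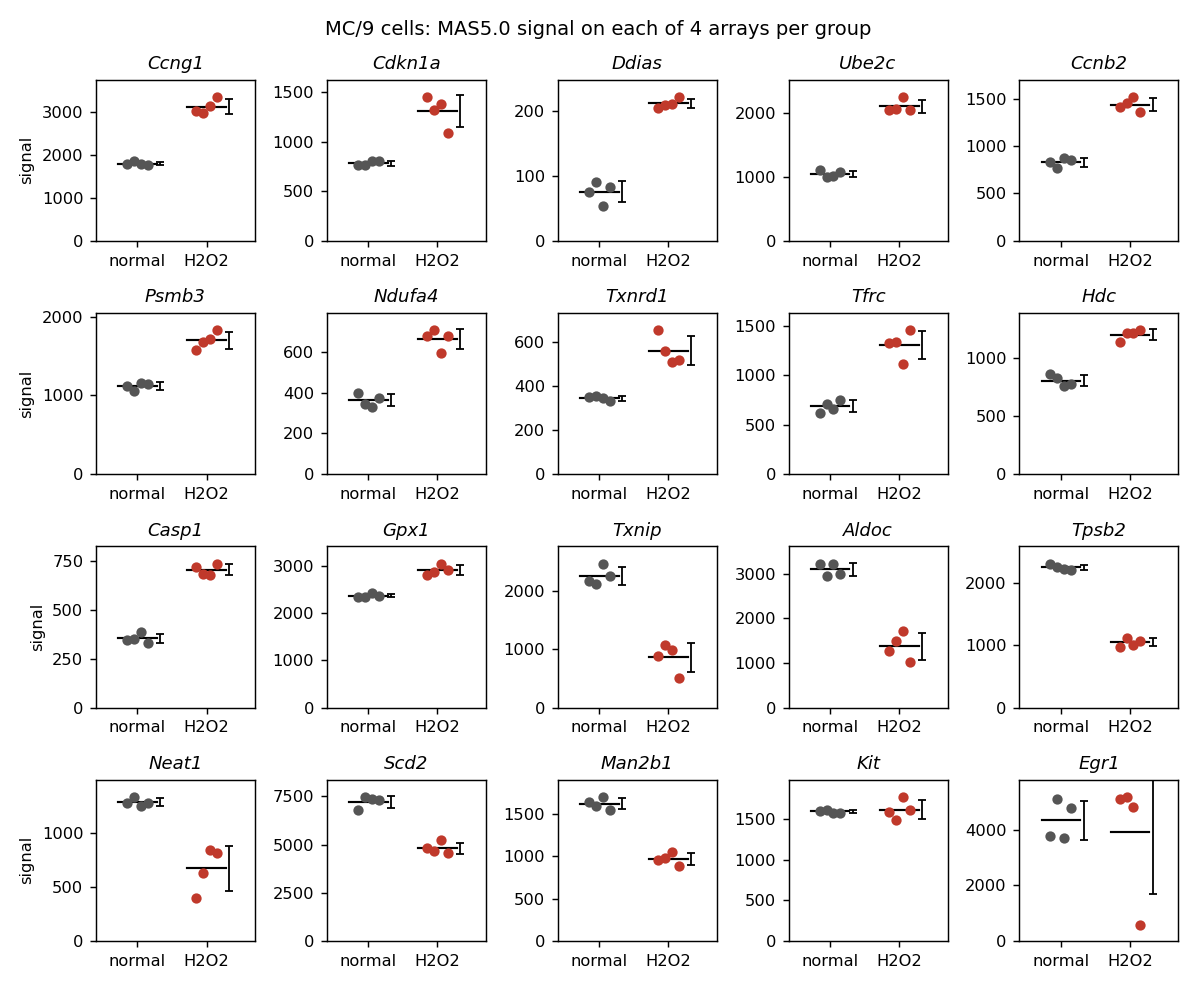
MAS5.0 signals of 20 genes on each of the 4 norm cell arrays (grey) and 4 oxi cell arrays (red), with the group mean as a bar and the SD beside it; each panel has its own axis from 0. Rises such as those of Ccng1 and Tfrc and falls such as those of Txnip and Tpsb2 leave the groups apart, Kit overlaps, and replicate 4 of oxi cell stands alone for Egr1.

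Glycolytic and hypoxia-inducible genes were lower as deposited, and fewer of these falls were called on the scale of the spiked controls. Of 19 glycolytic genes, 8 (42.1%, against 5.29% of all genes and 9.62% of detected genes) were called lower and 0 higher. On the scale of the spiked controls 1 was lower and 4 were higher. On that scale 21.4% of all genes were higher and 0.934% lower. The median was -0.18 against that of all detected genes. The fall that stayed was Aldoc, an aldolase, with 3225, 2946, 3209 and 3003 in norm cell and 1258, 1486, 1725 and 1024 in oxi cell, all of the latter lower (log2 change -1.20, SE 0.09, adjusted p = 5.6e-05). Pgk1 and Pkm, kinases that make ATP in glycolysis, had log2 changes of -0.42 and -0.36, and the glucose transporters Slc2a1 and Slc2a3 of -0.32 and -0.40. Of 19 genes induced by hypoxia, most of them targets of HIF, 9 (47.4%) were lower and 1 higher, against 4 and 4 on the scale of the controls, and the median lay -0.31 from that of all detected genes. Vegfa, the endothelial growth factor, had 242, 250, 193 and 213 in norm cell and 128, 114, 159.9 and 107 in oxi cell (log2 change -0.83, adjusted p = 0.00174, and -0.55 on the scale of the controls). Car9, a carbonic anhydrase, fell from 309.8 ± 18.3 (SD, n = 4) to 178 ± 30.3 and Mxi1, a transcriptional repressor, from 586 ± 28.8 to 369.9 ± 36.4. Both falls were called on that scale too, at -0.54 and -0.39.

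Genes of lipid synthesis and targets of FOXO were also lower as deposited, with few of these falls left on the scale of the spiked controls. Of 18 genes of fatty acid synthesis and desaturation 8 were lower and 1 higher, against 2 and 6 on that scale. Scd2, which desaturates fatty acids, had 6775, 7465, 7359 and 7333 in norm cell and 4796, 4682, 5221 and 4555 in oxi cell, without overlap (log2 change -0.59, SE 0.05, adjusted p = 0.000146), and Acss2, which makes acetyl-CoA from acetate, had a log2 change of -0.64. Both were the falls that stayed. In cholesterol synthesis 7 of 20 were lower and 0 higher as deposited, but 8 were higher and 0 lower on the scale of the controls, with Insig1, the sensor of sterols, at -0.52 and -0.24, and Hmgcs1 at -0.31 and -0.03. Of 16 FOXO targets 6 were lower and 0 higher, with a median -0.27 from all detected genes, and 2 were lower and 0 higher on the scale of the controls. Pik3ip1, an inhibitor of phosphoinositide 3-kinase, fell from 94.7 ± 5.31 (SD, n = 4) to 55 ± 7.2 (log2 change -0.79, adjusted p = 0.00145), and Cdkn1b, the inhibitor p27, had -0.52 and was not called on the other scale. Klf10 and Hes1, both transcriptional repressors and on no list here, were among the steepest falls. Klf10 had 304, 305, 294 and 297 in norm cell and 112, 135, 168 and 129 in oxi cell (log2 change -1.16, adjusted p = 8.68e-05), and Hes1 had 135 to 158 and 54.8 to 79.1. Both were called on the scale of the controls too (-0.88 and -0.83).

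Mast cell genes did not move together. Of 12 proteases measured, 6 were lower and 1 higher, and on the scale of the spiked controls 3 were lower and 1 higher. Tpsb2, tryptase beta of the granules, had 2304, 2255, 2215 and 2206 in norm cell and 978, 1122, 1007 and 1072 in oxi cell, every oxi cell array far under every norm cell array (log2 change -1.11, SE 0.06, adjusted p = 1.9e-05, and -0.83 on the scale of the controls). Tpsg1, another tryptase, had 275, 275, 298 and 272 in norm cell and 153, 167, 184 and 172 in oxi cell (log2 change -0.73, adjusted p = 0.000206). The chymase Cma1 fell by a log2 change of -0.69 and was called on that scale too. Mcpt2, also of the chymase family, and Cpa3 had log2 changes of -0.67 and -0.30 (adjusted p = 0.0272 and 0.00672), which neither kept on the scale of the controls (-0.39 and -0.03). Tpsab1, the partner tryptase of Tpsb2, rose from signals around background (8.98 to 17.4) to 22.3 to 35.7 (log2 change 1.17, adjusted p = 0.0233). Near-identical tryptase genes can share probes, and the sequence of the probes was not used here.

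The IgE receptor changed little. Fcer1a and Ms4a2, its alpha and beta chains, had log2 changes of -0.29 (adjusted p = 0.00487) and -0.25 (adjusted p = 0.0148), which became -0.02 and 0.03 on the scale of the spiked controls and were not called there. Of the 19 genes of the receptor and its signalling, 3 (15.8%) were higher and 4 (21.1%) lower, against 10 and 0 on that scale. The shares of detected genes as deposited were 12.6% and 9.62%. Hdc, histidine decarboxylase, which makes histamine, had 858, 827, 754 and 778 in norm cell and 1132, 1210, 1214 and 1236 in oxi cell, without overlap (log2 change 0.58, SE 0.06, adjusted p = 0.000301). Ltc4s, leukotriene C4 synthase, rose by 0.45 (adjusted p = 0.0172), with replicate 3 of oxi cell at 143 near the norm cell arrays. Slc18a2, which loads histamine into granules, had a log2 change of -0.39, and Srgn, the core of granule proteoglycan, of -0.27, and neither fall was called on the scale of the controls. Kit (log2 change 0.02, adjusted p = 0.913), Csf2rb, the shared receptor chain for interleukin-3 (0.08), and Mitf (-0.04) did not pass the test as deposited, but all were called higher on the scale of the controls (0.29, 0.35 and 0.24), and Csf2rb also with quantile normalization. Gata2 was lower as deposited, 3557 to 3786 against 2451 to 3239 (log2 change -0.38, adjusted p = 0.00185), and at -0.10 on the scale of the controls. Zfpm1, the GATA cofactor FOG1, rose on every oxi cell array, with 116 to 134 in norm cell and 186 to 200.3 in oxi cell (log2 change 0.65, adjusted p = 0.000657).

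Signal-induced genes were mostly not called at 24 h, which also holds for detected genes at large, of which 22.2% were called. Of 23 immediate early factors 2 (8.7%) rose and 0 fell (5 and 0 scaled to the controls), against 12.6% and 9.62% of detected genes. Egr1, an early growth response factor, had 3780, 5112, 3713 and 4778 in norm cell and 5124, 5188, 4831 and 589.8 in oxi cell, so that replicate 4 of oxi cell lay far under all other arrays and the groups overlapped (log2 change -0.54, SE 0.43, adjusted p = 0.517). Fos and Jun were lowest on the same array of oxi cell, at 18.9 and 93.1, against 29.1 to 93 and 119 to 145 in norm cell (adjusted p = 0.191 and 0.164). On the other 3 oxi cell arrays Fos was at 114 to 302 and Jun at 200.4 to 241, above every norm cell array, and both genes were called higher on the scale of the controls (1.19 and 0.66). Fosl1, another AP-1 member, had 23.1 to 31.4 in norm cell and 35.5 to 68.8 in oxi cell (log2 change 0.87, adjusted p = 0.0139). Atf3, a stress-induced factor, had the largest log2 rise of the detected genes, 2.36 (adjusted p = 0.0318), but at signals near background, with 18, 0.81, 2.98 and 6 in norm cell and 26.5, 17.9, 21.8 and 17.6 in oxi cell, and the first norm cell array lay within the oxi cell values. Socs2, a feedback inhibitor of cytokine receptors, rose from 86.6 ± 6.32 (SD, n = 4) to 149 ± 15, whereas Dusp6 and Spry2, which dampen ERK signalling, had log2 changes of -0.12 and -0.20 that did not pass the test. Of 23 cytokines and chemokines 0 were higher and 2 lower (1 and 2 scaled to the controls), Vegfa and the chemokine Ccl2 (1023 to 1252 against 641 to 864), and the interleukin Il6 had 402 to 439 and 271 to 434 (adjusted p = 0.519).

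Genes of cell death moved in both directions. Among 31 members of the BCL2 family, caspases and inhibitors of apoptosis 3 (9.68%) rose and 5 (16.1%) were lower, against 12.6% and 9.62% of detected genes. On the scale of the spiked controls 12 were higher and 0 lower. Casp1, the caspase of inflammasomes that cleaves interleukin-1 beta, had 349, 354, 387 and 330.5 in norm cell and 724, 688, 681 and 738 in oxi cell, without overlap (log2 change 1.00, SE 0.07, adjusted p = 2.86e-05). Mlkl, the executor of necroptosis and on no list, rose from 211 ± 14 (SD, n = 4) to 386 ± 37.9 (adjusted p = 7.44e-05). The inhibitors of apoptosis Birc2 and Birc3 were lower at -0.43 and -0.37, as was Bcl2l11, the death activator BIM, at -0.39. Bcl2 and Mcl1, which protect from death, had log2 changes of 0.08 and -0.20 and did not pass the test. Interferon-response and antigen presentation genes were lower in 12 of 38 and higher in 4, against 1 and 9 on the scale of the controls. Irgm1, an interferon-induced GTPase, fell on every oxi cell array, with 1270 to 1352 in norm cell and 775 to 1001 in oxi cell (log2 change -0.52, adjusted p = 0.000647, and -0.25 on the scale of the controls). B2m, the light chain of class I molecules, had -0.32 and -0.04. Irf1, a transcription factor of this response, had 1141, 1180, 1121 and 628 in oxi cell, replicate 4 being far under the others, and 1286 to 1409 in norm cell (log2 change -0.46, adjusted p = 0.0308), and was not called on the scale of the controls. Ifih1, a sensor of double-stranded RNA, rose by 0.38.

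Lists of organelles and the cytoskeleton held more rises than falls, as did all detected genes (12.6% higher and 9.62% lower). The autophagy shares, 9.68% and 6.45%, were below these. The lysosomal and autophagy medians lay -0.02 and -0.04 from that of all detected genes. Of 52 lysosomal genes 10 rose and 6 were lower (23 and 1 scaled to the controls), with Man2b1, the lysosomal mannosidase, at 1644, 1595, 1699 and 1541 in norm cell and 956, 979.9, 1052 and 886 in oxi cell, without overlap (log2 change -0.74, SE 0.05, adjusted p = 3.07e-05), the fall that was called on the scale of the spiked controls (-0.47). Among 31 autophagy genes 3 rose and 2 fell (10 and 0 scaled to the controls), with Atg3, a conjugating enzyme, at 0.48 and the receptor Sqstm1 at 0.04 (adjusted p = 0.723). Of 49 genes of exosome tetraspanins, ESCRT sorting and release 9 (18.4%) were higher and 3 lower (25 and 0 scaled to the controls). Snf8, of the ESCRT-II complex, rose from 302 ± 17.8 (SD, n = 4) to 499.9 ± 10.2 and Pdcd6ip, the ESCRT adaptor ALIX, from 486 ± 36.1 to 647 ± 32.5, with 1 of 4 other detected probe sets of Pdcd6ip of the other sign, and Sdcbp, the adaptor syntenin, had 2252 to 2491 and 2358 to 2522 (adjusted p = 0.604). In the actin list 10 of 44 rose and 4 were lower (34 and 0 scaled to the controls), with Actr3, which nucleates branched filaments, at 0.66 and Actb at -0.21 (0.07 on the scale of the controls). Of 15 tubulins 5 (33.3%) rose and 1 was lower (10 and 0 scaled to the controls), with a median 0.23 above all detected genes. Tubb6 had 163 to 204 and 365 to 409.6 (log2 change 1.10, adjusted p = 2.38e-05), although the change of its other detected probe set had the other sign.

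Splicing and microRNA genes were called as deposited at shares near those of detected genes (12.6% higher and 9.62% lower). Their calls when scaled to the controls were rises, as were most calls on that scale. Of 51 splicing factors and hnRNP proteins 6 (11.8%) were higher and 5 (9.8%) lower (33 and 0 scaled to the controls), against 2 and 9 with quantile normalization. Among 16 genes of microRNA processing 2 (12.5%) were higher and 2 (12.5%) lower (6 and 0 scaled to the controls). Drosha and Dicer1, the nucleases that cut primary and precursor microRNAs, rose by 0.32 and 0.31, and Dgcr8, the partner of Drosha, had -0.50 and was not called on the scale of the spiked controls. Neat1, the noncoding RNA that builds paraspeckles, had 1277, 1328, 1247 and 1270 in norm cell and 397, 626, 838 and 814 in oxi cell. The oxi cell arrays were all lower and spread widely, replicate 1 being the lowest (log2 change -0.996, SE 0.14, adjusted p = 0.00136, and -0.72 on the scale of the controls). Kcnq1ot1, an antisense RNA of an imprinted region, also fell, with 300.1 to 329 in norm cell and 156 to 229.5 in oxi cell, and Malat1, a nuclear RNA of speckles, had -0.10 (adjusted p = 0.687). Of 19 such RNAs 2 rose and 4 were lower (6 and 2 scaled to the controls).

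**Figure D5:**
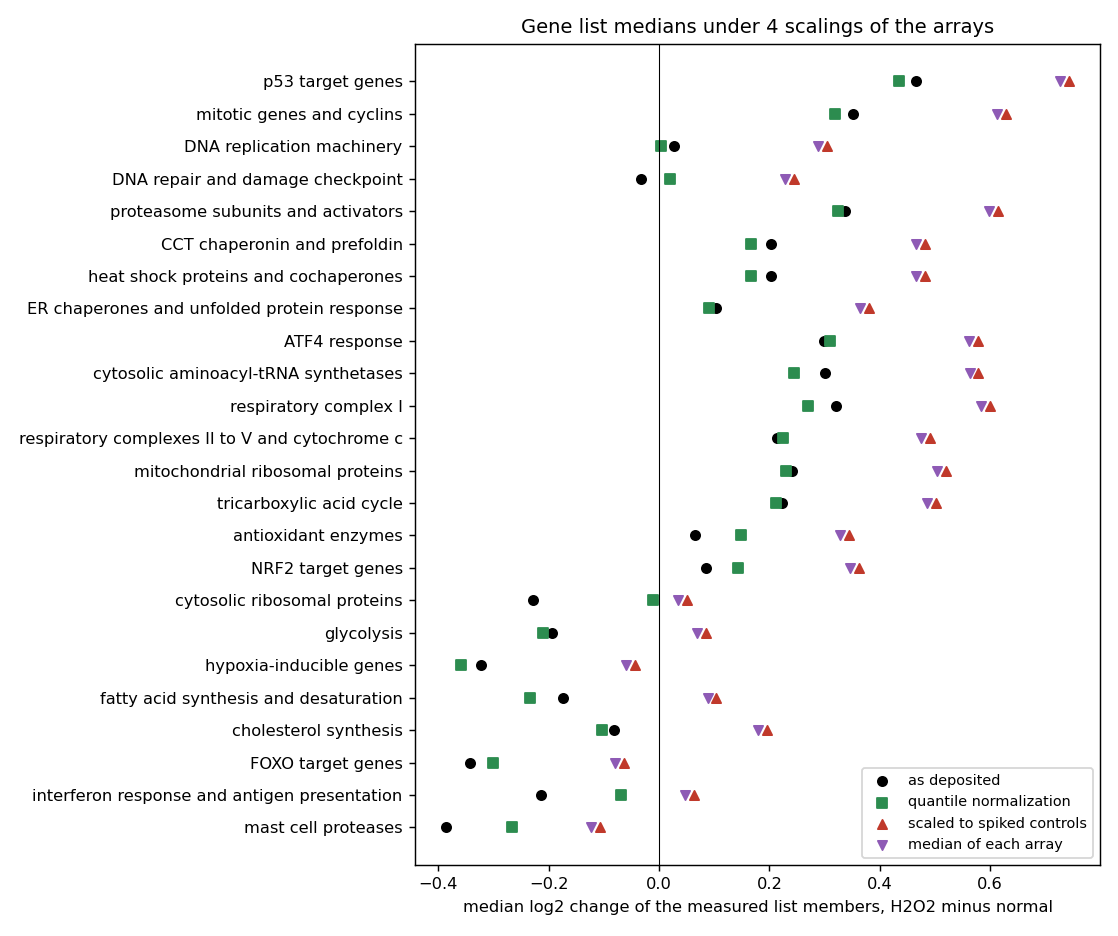
Median log2 change (oxi cell minus norm cell) of the measured members of 24 gene lists with the arrays as deposited (black), after quantile normalization (green), scaled to the spiked controls (red) and centred on the array median (purple). The last pair of scalings shifts all lists to the right by about the same step, 0.28 and 0.26, and takes the ribosomal and glycolysis medians from below 0 to above it.

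The steepest rises by fold were mostly genes that were near background in norm cell. Among the 15 genes of largest rise, 7 were below background on all norm cell arrays, so that only a lower bound holds for them. It was taken as the geometric mean signal in oxi cell over the geometric mean background of norm cell. C3ar1, the receptor for the complement peptide C3a, was at least 1.84-fold higher (30.2, 29.1, 28.6 and 31.1 in oxi cell, adjusted p = 0.00427), Lyz1, a lysozyme, at least 1.55-fold higher and Ifitm1, an interferon-induced membrane protein, at least 1.87-fold higher. Trp53inp2, which takes part in autophagy, had 15.1, 13.4, 1.33 and 20.3 in norm cell and 38.8, 47.6, 42 and 46.4 in oxi cell (log2 change 2.34, adjusted p = 0.0157), and Ptgr1, a reductase of reactive aldehydes, 13.1, 16, 21.4 and 10.9 and 47.6, 38.7, 44.4 and 48.2. Among genes of higher signal, Ahr, the receptor for aryl hydrocarbons, rose from 307 ± 15.3 (SD, n = 4) to 553 ± 22.4 (log2 change 0.85, adjusted p = 5.13e-05), and Cyp1b1, a target of that receptor, from 119.5 ± 9.59 to 229.9 ± 33.1. Of the largest falls, Ctse, an intracellular aspartic protease, had 414, 339, 410.1 and 349 in norm cell and 158, 194, 155 and 149 in oxi cell (log2 change -1.21, SE 0.10, adjusted p = 7.07e-05, and -0.93, still called, on the scale of the controls). Sema3f, a semaphorin, had the largest log2 fall, -1.70, but its norm cell arrays ran from 16.7 to 82.4 and its oxi cell arrays lay around background.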

How the data were processed

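Total RNA of 4 norm cell and 4 oxi cell samples was hybridised to mouse 430 2.0 arrays. The authors summarised each probe set as a MAS 5.0 signal, and the submitters' processing notes name GCOS 1.2. The deposited intensity values are linear, and every array has a mean of 100 once the lowest and highest 2% of its probe sets are left out. The sign of some small changes depended on this global scaling. Which scaling is nearest to the RNA per cell was not tested. No detection calls were used here, so a background percentile stood in for them. The number of arrays limits the precision.

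Of 45101 probe sets, 64 controls were left out and 45037 tested. Probe sets were named from the platform annotation, 34945 with 1 gene symbol, 932 with several and 9160 with none, and a gene took the probe set of highest mean log2 signal among those with 1 symbol. Log2 signals were fitted with lmFit and eBayes (with a trend) in limma 3.58.1 under R 4.3.3, with the replicate number as a block as in the study's paired test, and p-values were adjusted across all tested probe sets by the Benjamini-Hochberg method. Array measures were compared by an exact permutation test, two-sided. Other steps used Python 3.11.15 with pandas 2.3.3, numpy 2.4.6, scipy 1.17.1, and matplotlib 3.10.9 for plots. Standard deviations are over 4 arrays.

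The 54 gene lists, the arrays and the tests were chosen with earlier results of these data known. The genes named are fixed key members of each list, the 3 called members of largest change in each list, and the 15 largest rises and 15 largest falls among called genes detected in their higher group with all 4 same-numbered differences in 1 direction. The other genes named, and the minimum mean signal of 150 for the steepest changes at higher signal, were chosen after their values were seen, as were the histone list's final members. Alternatives were no block, quantile normalization, scaling to the spiked controls, median centring, a filter on low signals, an added 16, floors at background, no trend, the methods' t-test, and each replicate left out.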

Additional observations from a re-analysis of the deposited data

Results flagged for a closer look

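An array was singled out where its gap to the nearest of the other 3 arrays of its group was above Dixon's 95% critical share of the group's range for 4 arrays, which chance gives in about 1 in 20 groups. Of the 386 groups of the genes named in the text and array measures, 17 had such an array. Replicate 4 of oxi cell was far below the others for Egr1 (590 against 4831 to 5188, gap over range 0.922), Irf1 (628 against 1121 to 1180, 0.893) and Lyz1 (15.9 against 28.5 to 29.7, 0.913), and it was the highest for Sdhb (0.879). Replicate 3 of oxi cell was the highest for Ube2c (0.891) and Drosha (0.898) and the lowest for Ltc4s (0.869). Replicate 1 of oxi cell was the highest for Cd82 (0.840) and, below background, for Cd3e (0.851), and replicate 2 was the highest for Itgam (0.892), also below background. In norm cell, replicate 3 was the lowest for Ccnd1 (214 against 245 to 246, 0.969) and Spry2 (0.931) and the highest for Tpsg1 (0.881), replicate 4 was the highest for Gclc (0.874) and the lowest for Lyz1 (0.920), and replicate 2 was the lowest for Ndufb8 (0.880). For Gapdh, the 3' over 5' signal had 1 high array among the 4 of oxi cell, at 0.884 (0.873). The causes were not tested.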

How the results depend on the processing

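The replicate number was a block because the study's methods pair the arrays, but the numbers did not pair the samples: deviations of same-numbered arrays correlated at 0.0158, -0.0277, -0.0178 and 0.0688, and 1 of 4 numbers matched its own best. With no replicate block 2133 probe sets were higher and 2717 lower, and of 149 called genes named in the text the calls of Actb (adjusted p = 0.0548), Atf3 (0.0512), Gclc (0.0671) and Irf1 (0.0699) were lost.

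Against 1941 higher and 2483 lower as deposited, scaling to the spiked controls gave 6177 and 498 and median centring 6210 and 607. Without the trend, limma gave 0 and 0 (7011 at an unadjusted p below 0.05), the paired t-test on log2 signals 0 and 0 (7882), and the methods' t-test on linear signals 2 and 3 after adjustment (7885 before). Over the 20431 detected probe sets, as chosen after seeing the data, the paired t-test on log2 signals gave 381 and 284. A floor at each array's background gave 3249 and 28126, since the floors themselves differ between the groups, and a common floor at the highest background, also chosen after seeing the data, gave 496 and 303. Leaving out 1 replicate gave 1130 to 1672 higher and 1363 to 2045 lower. Of the 149 genes 24, 23, 14 and 32 lost their call without replicates 1, 2, 3 and 4, and none changed sign. All 149 lost it over all probe sets without the trend and with either paired t-test. Over the detected probe sets alone, 26 lost it without the trend and 107 with the paired t-test on log2 signals. The common floor at the highest background took the call from 93. Quantile normalization, the filter on low signals, the added 16 and the detected probe sets alone kept both counts within 1.5 times.

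Among the called genes, log2 changes that turned from below 0 as deposited to above it were, on the scale of the spiked controls and after median centring, Actb at 0.07 and 0.05, Ccnd2 at 0.05 and 0.04 (0.02 with quantile normalization), Ms4a2 at 0.03 and 0.01, Pcna at 0.04 and 0.02, Pcbp1 at 0.11 and 0.09, Psmb8 at 0.08 and 0.07, and Psmb9 at 0.03 and 0.01. On the scale of the spiked controls alone, Ndufa6 stood at 0.00 and Srgn at 0.01, and of the genes not called as deposited Hspa8 at 0.23 (0.18 with quantile normalization), Mitf at 0.24 and Mt1 at 0.25 turned sign and were called higher there. Cd3e and Cd79a, below background on all arrays, went to -0.29 with a floor at each array's background, which is the difference of the floors. The median of all probe sets was -0.15 as deposited and 0.13 on the scale of the spiked controls. Signals near background limit what the steepest folds can show.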
